A study of Homo sapiens with 2 samples.

Results

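Epithelial identity is held by a small set of transcription factors and splicing regulators. The 9 described here are the splicing regulators ESRP1 and ESRP2, the grainyhead-like factors GRHL1 and GRHL2, the zinc finger repressors OVOL1 and OVOL2, and the epithelial ETS factors ELF3, EHF and SPDEF. They were compared in HCC4006 cells and in HCC4006ER cells. HCC4006 is a human non-small cell lung cancer line with an EGFR exon 19 deletion and is sensitive to the EGFR inhibitor erlotinib. HCC4006ER is a resistant bulk population derived from that line by growth in rising concentrations of erlotinib. The study describes HCC4006ER cells as having an epithelial-mesenchymal transition (EMT) phenotype. Both lines were kept for 48 hours in RPMI medium containing 10% FBS without further treatment. RNA of 3 preparations per cell line was then mixed and measured on 1 Affymetrix HG-U133 array. Every probe set annotated with 1 of these gene symbols and no other was taken, which gave 23 of 41097 such probe sets and 8 of the 9 genes among 19775. ESRP2 was represented only by a probe set that also lists another gene, so no value is given for it.

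The ESRP proteins bind pre-mRNA and keep the epithelial form of exons that mesenchymal cells splice otherwise. Grainyhead-like and OVOL factors hold epithelial junction genes active and the repressors of the ZEB family silent, and the epithelial ETS factors drive differentiation and secretion in lung and other lining epithelia. In EMT several of these regulators are known to be lost, often together.

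The deposited MAS5 values are linear signal intensities, scaled so that the trimmed mean was 500.1 on both arrays. The background level was the 95th percentile of 127 probe sets for olfactory and bitter taste receptors, which was 96.2 on the HCC4006-labelled array and 91.6 on the HCC4006ER-labelled array. Where a gene had several probe sets, that of highest mean log2 signal stood for it. It was called lower or higher where the signals differed by more than 1.5-fold after a signal under background had been raised to that level. A fold against a raised level is a lower bound, written as "at least". With 1 array of mixed RNA per cell line there was no replicate and no test. As a measure of measurement disagreement, log2 folds of probe sets for the same gene had a pooled SD of 0.27 over 5264 genes, which leaves out all variation between arrays and cultures. Gaps between genes are given as multiples of it, but it is the SD of single folds and not of a difference between folds. The medians over all probe sets, 63.4 on the HCC4006-labelled array and 57.7 on the HCC4006ER-labelled array, lay under these background levels. Scaling to equal medians would move every log2 fold up by 0.14. In that case 7.4% of genes above background would be lower and 12.4% higher.

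The arrays are called by their labels because genes that usually mark EMT, the phenotype the study gives HCC4006ER cells, did not all differ. The mesenchymal genes VIM, CDH2 and FN1 were picked for this check with their values known. By chosen probe set they were 1.53-fold (5926 and 9057), 2.05-fold (1181 and 2419) and 1.66-fold (1143 and 1900) higher on the HCC4006ER-labelled array. Any other probe sets of these genes are not given. In contrast, the E-cadherin gene CDH1 read 10469 on the HCC4006-labelled array and 11041 on the HCC4006ER-labelled array, and all 4 probe sets of ZEB1, a repressor of E-cadherin, lay under background on both. From its arrays the study reported ZEB1 as much higher in HCC4006ER cells, and Her3 (ERBB3) and E-cadherin as lost. The deposited values did not show this, and ERBB3 read 1198 on the HCC4006-labelled array and 1305 on the HCC4006ER-labelled array. RT-PCR in the study also gave lower EPCAM, ESRP1 and ST14, of which only ESRP1 was lower past 1.5-fold here. The reason for these disagreements was not tested. All 8 epithelial identity markers (CDH1, EPCAM, KRT7, KRT8, KRT18, KRT19, CLDN7 and DSP) were above background on both arrays and within 1.5-fold, with log2 folds from -0.37 to 0.51 and summed signals of 91387 and 91681. Of 12 fibroblast markers 2 were above background on the HCC4006-labelled array and 1 on the HCC4006ER-labelled array, with summed signals of 1102 and 1252. COL1A1 was 1.63-fold higher on the HCC4006ER-labelled array by its chosen probe set (591 and 965). Of 3 COL1A1 probe sets above background 1 was past 1.5-fold, and the others read 720 and 635, and 101 and 97.3. THY1 read 125 and 40.1, at least 1.37-fold lower. The defining markers COL3A1, LUM and PDGFRB were under background on both arrays. Of 4 measured blood cell markers, 2 were above background on the HCC4006-labelled array and 1 on the HCC4006ER-labelled array. These were HBB (180 and 155) and CD3E (98.0 and 58.6), while PTPRC, the common marker of white blood cells, was under background on both, and the summed signals were 382 and 251. The part of other cell types in the folds was not tested. The mixed RNA cannot tell fewer expressing cells from less RNA per cell.

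Among the 8 measured regulators, 4 were lower past 1.5-fold on the HCC4006ER-labelled array, namely SPDEF, GRHL2, EHF and ESRP1. None was higher, and OVOL1, OVOL2, ELF3 and GRHL1 lay within 1.5-fold. Of the 11896 genes above background, 11.2% were lower and 7.99% higher by the same rule. The median log2 fold of the regulators was -0.52 and that of all genes above background was -0.04. All 8 regulators were above background on both arrays, so none of these values rests on a bound. Counted by probe set, 11 of the 21 above background were lower and 0 higher, where 10.1% of all 21895 probe sets above background were lower and 9.25% higher. These probe sets share genes and arrays and are not independent.

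**Figure D1:**
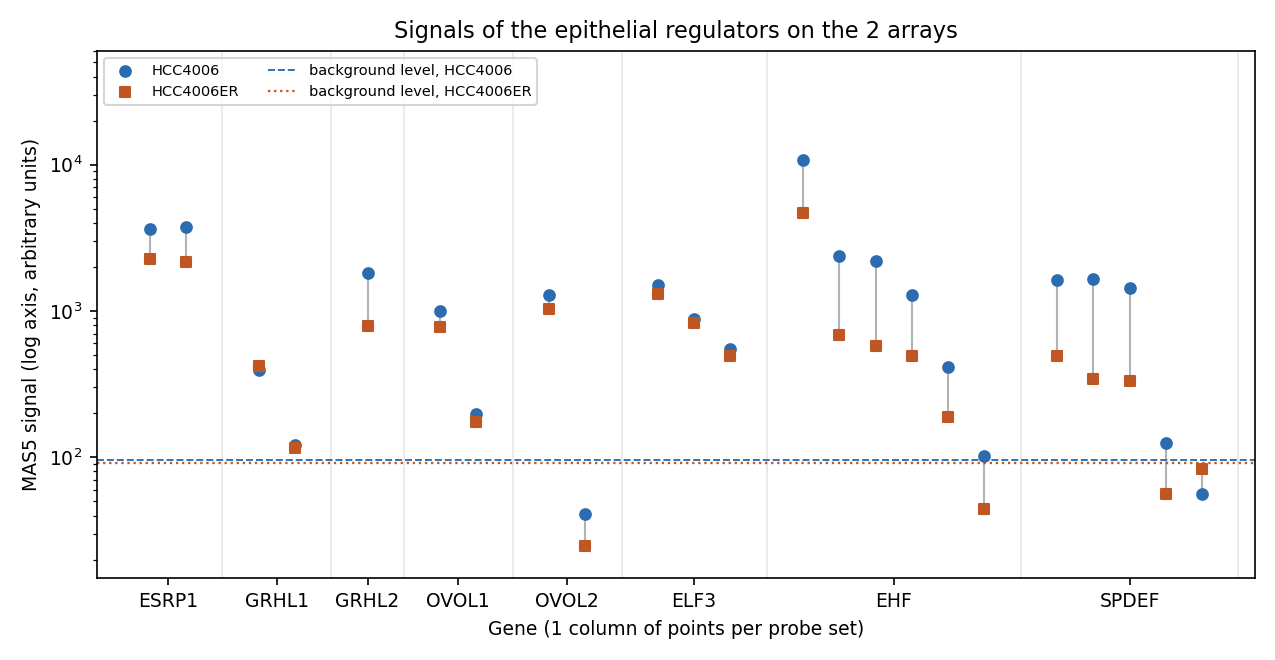
MAS5 signal on a log axis for every probe set of the 8 measured regulators, on the HCC4006-labelled array and the HCC4006ER-labelled array, with the background levels of 96.2 and 91.6. SPDEF, EHF, GRHL2 and ESRP1 have their brighter probe sets lower on the HCC4006ER-labelled array, while the points of ELF3 and GRHL1 lie close together.

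ESRP1 directs epithelial exon choice in transcripts such as FGFR2 and CD44. Its chosen probe set (219121_s_at) read 3647 on the HCC4006-labelled array and 2273 on the HCC4006ER-labelled array, 1.60-fold lower (log2 fold -0.68). The second probe set (225846_at) read 3728 and 2158, 1.73-fold lower. The 2 probe sets therefore lay close together, with an SD of 0.075 between their log2 folds. ESRP1 was well above background on both arrays, and 1244 genes lay at or below its log2 fold among the 11896. After scaling to equal medians its log2 fold was -0.55 and no longer past 1.5-fold.

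Transcripts known to be spliced under ESRP control were examined for their total signal. Which splice forms their probe sets read was not examined. Of 10 such genes, 8 were above background, 1 was lower, 1 was higher and 6 lay within 1.5-fold, with a median log2 fold of -0.03. By comparison 11.2% of all genes above background were lower and 7.99% higher. NUMB was under background on both arrays and CTNND1 had no probe set of its symbol alone. FGFR2, the receptor whose IIIb form marks epithelia, read 332 on the HCC4006-labelled array and 572 on the HCC4006ER-labelled array, 1.72-fold higher. Its probe sets disagreed, since of 4 above background 1 was lower and 1 higher. SCRIB, a cell polarity scaffold, read 1153 and 714, 1.62-fold lower, and passed the threshold neither way after median scaling. ENAH, an actin regulator with an epithelial exon, had a log2 fold of -0.07, and its 5 probe sets above background ranged from -0.55 to 0.56.

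CD44 is a hyaluronan receptor with a long series of variable exons that ESRP proteins retain. Its chosen probe set read 15207 on the HCC4006-labelled array and 12207 on the HCC4006ER-labelled array (log2 fold -0.32). Other probe sets of CD44 were further apart. Of 12 above background 6 were lower past 1.5-fold and all 12 had a negative log2 fold, between -1.60 and -0.22. CD44 also lies close to EHF in the genome, the third measured protein-coding gene after it.

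Of 10 other RNA-binding proteins with known roles in EMT splicing, all 10 were above background and none was past 1.5-fold in either direction by its chosen probe set, with a median log2 fold of 0.05. Other probe sets of 3 of these genes did pass, all of them higher. QKI, which favours mesenchymal exons and circular RNAs, read 5831 on the HCC4006-labelled array and 7240 on the HCC4006ER-labelled array (log2 fold 0.31) by its chosen probe set. The other 5 QKI probe sets above background were all higher past 1.5-fold, from 1.65-fold (1684 and 2777) to 2.94-fold (141 and 414), so the chosen one gave the smallest difference. RBM47, a splicing factor of epithelia, had a log2 fold of 0.25, with 1 of 5 probe sets above background past 1.5-fold higher. For MBNL2 this was 1 of 4. By chosen probe set the log2 folds of the list ran from -0.16 for HNRNPM to 0.52 for MBNL2, and MBNL2 passed 1.5-fold higher with the median scaling. ESRP1, at -0.68, lay below this range.

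GRHL2 binds at enhancers of epithelial junction genes, among them CDH1 and CLDN4. Its signal was 1822 on the HCC4006-labelled array and 794 on the HCC4006ER-labelled array, 2.30-fold lower (log2 fold -1.20). Of the 11896 genes, 429 lay as low or lower. GRHL2 had 1 probe set (219388_at), so no second reading on the array bears on this value. GRHL1, a paralog that acts on desmosomal genes in the skin, read 393 and 419 (log2 fold 0.09), the only positive log2 fold among the chosen probe sets of the regulators. A second probe set of GRHL1 read 121 and 115, near background on both arrays. The log2 folds of GRHL2 and GRHL1 were 1.29 apart, which is 4.71 times the probe-set SD.

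Relatives of the pair lay nearer to 0 than GRHL2. GRHL3, the remaining grainyhead-like gene, read 256 on the HCC4006-labelled array and 215 on the HCC4006ER-labelled array (log2 fold -0.26). Of the CP2 branch of the family, UBP1 had a log2 fold of -0.52 and TFCP2 one of -0.02, and the chosen probe set of TFCP2L1 was under background on both arrays. Another TFCP2L1 probe set read 124 and 50.9, at least 1.35-fold lower. None of the 3 relatives above background by chosen probe set was past 1.5-fold.

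Genes linked to grainyhead factors in epithelia were also within 1.5-fold by chosen probe set, all 9 of the 9 above background, at a median log2 fold of 0.07. The list overlaps with others, since it holds GRHL3, given above, and the epithelial identity markers CDH1 and EPCAM. CLDN4, a tight junction claudin, read 1970 on the HCC4006-labelled array and 1947 on the HCC4006ER-labelled array. The lowest was RAB25, a recycling GTPase of epithelia, at 5404 and 3629, 1.49-fold lower and just inside the threshold. The highest was the membrane protease ST14, at 2902 and 4141 (log2 fold 0.51), which passed 1.5-fold with median scaling. Between them lay SPINT1, the inhibitor of that protease (-0.43), PRSS8 (0.21), ERBB3 (0.12) and EPCAM (0.07). Of 3 ERBB3 probe sets above background 1 was past 1.5-fold, 2.02-fold higher. GRHL2, at -1.20, lay below all 9, and no test of that difference was possible.

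OVOL1 and OVOL2 are repressors that restrain the mesenchymal programme, OVOL2 partly through ZEB1. OVOL1 (229396_at) read 991 on the HCC4006-labelled array and 775 on the HCC4006ER-labelled array, a log2 fold of -0.36. OVOL2 (211778_s_at) read 1289 and 1024, a log2 fold of -0.33. Both were modestly lower at a size within the threshold, and the gap of 0.03 between them was 0.091 of the probe-set SD. The dimmer OVOL1 probe set read 197 and 174 (log2 fold -0.18). The other OVOL2 probe set, at 40.7 and 24.6, was under background on both arrays, so no fold is given for it.

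Repressors that oppose the OVOL and grainyhead-like factors were read beside them. Of 6 EMT repressors 3 were above background, 1 was lower, 0 were higher and 2 lay within 1.5-fold. Over all genes above background 11.2% were lower and 7.99% higher. SNAI2 read 3377 on the HCC4006-labelled array and 3556 on the HCC4006ER-labelled array, and TWIST1 had a log2 fold of 0.26. TWIST2, a basic helix-loop-helix factor that promotes EMT, read 799 and 293, 2.72-fold lower, and its other probe set (113 and 72.0) was at least 1.23-fold lower. ZEB1, ZEB2 and SNAI1 were under background on both arrays by their chosen probe sets.

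The epithelial ETS factors covered the widest span. SPDEF, a factor of goblet and other secretory cells, read 1622 on the HCC4006-labelled array and 491 on the HCC4006ER-labelled array, 3.31-fold lower (log2 fold -1.72). It was the lowest of the 8 regulators by chosen probe set, and 197 of the 11896 genes lay as low or lower. Further probe sets read 1647 and 344, 4.78-fold lower, and 1432 and 330 (log2 fold -2.12). The 3 SPDEF probe sets above background on both arrays had a mean log2 fold of -2.03 with an SD of 0.28. Of the remaining probe sets, 213442_x_at read 126 and 55.7, at least 1.38-fold lower, and 214403_x_at was under background on both arrays. All 5 carry the suffix _x_at, which marks probes that may also bind other transcripts, so no SPDEF reading without that limit was available.

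EHF, which keeps bronchial and glandular epithelium differentiated, read 10792 on the HCC4006-labelled array and 4703 on the HCC4006ER-labelled array, 2.29-fold lower (log2 fold -1.20). Of the 11896 genes, 431 lay as low or lower, close to the 429 of GRHL2. Another 4 probe sets, above background on each array, were lower as well, from 2.20-fold (222932_at, 414 and 188) to 3.81-fold (224189_x_at, 2190 and 575). Over the 5 probe sets the mean log2 fold was -1.48 with an SD of 0.35. A sixth (232360_at), at 103 and 44.2, was at least 1.12-fold lower.

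ELF3 is induced in lung epithelium by inflammatory signals and acts on overlapping epithelial targets. The chosen one of its 3 probe sets had a signal of 1505 on the HCC4006-labelled array and 1308 on the HCC4006ER-labelled array, a log2 fold of -0.20. The other 2 probe sets read 876 and 830 (-0.08) and 549 and 494 (-0.15). All 3 readings of ELF3 were therefore nearly level. The log2 fold of ELF3 differed from that of EHF by 3.63 times the probe-set SD and from that of SPDEF by 1.52, or 5.55 times. EHF and SPDEF were 0.53 apart, 1.92 times that SD.

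**Figure D2:**
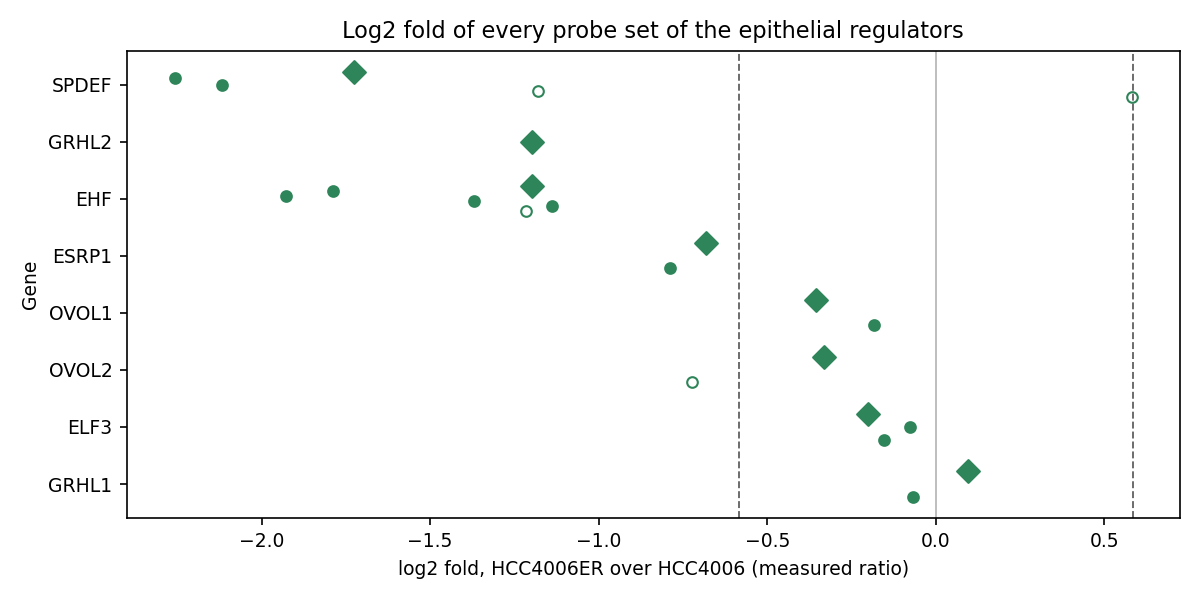
Log2 fold (HCC4006ER over HCC4006) of each probe set of the 8 measured regulators, with the chosen probe set as a diamond, probe sets not above background on both arrays as open circles and dashed lines at 1.5-fold. The probe sets of SPDEF and EHF above background on both arrays all lie below the lower line, and those of ELF3, GRHL1 and OVOL1 all lie between the lines.

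The RefSeq sequence next to the start sites of these ETS genes is shown because the 3 paralogs differed most within a family, and because ETS factors and the ZEB and SNAI repressors read short motifs that can be searched there. Each window holds the 250 bases before the annotated start (GRCh38.p14), written 5′ to 3′ along the gene. Capitals mark the ETS core GGAA and the repressor E-box CACCTG, searched on both strands, so that TTCC in capitals is GGAA on the other strand. The SPDEF window is chr6:34556330-34556579 (minus strand), that of EHF chr11:34624007-34624256 (plus strand) and that of ELF3 chr1:202010337-202010586 (plus strand).

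SPDEF: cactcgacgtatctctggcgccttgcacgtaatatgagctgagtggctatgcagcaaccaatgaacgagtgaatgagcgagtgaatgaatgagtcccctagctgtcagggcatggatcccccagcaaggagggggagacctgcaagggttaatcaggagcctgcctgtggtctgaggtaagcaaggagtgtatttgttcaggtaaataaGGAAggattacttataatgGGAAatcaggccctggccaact
EHF: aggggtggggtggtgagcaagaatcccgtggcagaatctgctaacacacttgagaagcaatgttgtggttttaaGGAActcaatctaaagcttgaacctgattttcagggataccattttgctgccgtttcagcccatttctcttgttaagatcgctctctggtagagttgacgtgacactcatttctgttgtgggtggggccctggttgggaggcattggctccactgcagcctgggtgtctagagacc
ELF3: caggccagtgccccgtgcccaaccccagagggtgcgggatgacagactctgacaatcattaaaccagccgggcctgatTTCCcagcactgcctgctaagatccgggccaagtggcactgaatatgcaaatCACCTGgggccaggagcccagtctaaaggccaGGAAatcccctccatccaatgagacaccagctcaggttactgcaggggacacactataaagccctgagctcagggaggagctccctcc

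The SPDEF window held 2 GGAA matches, at bases -41 to -38 and -22 to -19 counted back from the start, and no CACCTG. The EHF window held 1 GGAA match, and the window before a second annotated EHF start held neither motif. ELF3, the ETS gene that stayed nearly level, was the only one of the 3 with a CACCTG match, at bases -120 to -115, beside 2 GGAA matches. GRHL1 had 1 GGAA match and no CACCTG. No match overlapped another. The grainyhead motif AACCNGTT was absent from all of these windows. Over all 35116 windows in the table, 17.5% held CACCTG, 92.7% held GGAA with a median of 3 matches, and 1.49% held AACCNGTT. A match describes the letters of a window and not binding, and other stretches of these genes were not searched.

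Of 24 other ETS family genes 15 were above background, of which 2 were lower, 3 higher and 10 within 1.5-fold, at a median log2 fold of -0.12. The shares over all genes above background were 11.2% lower and 7.99% higher. ETV1, a factor downstream of receptor kinase signalling, read 641 on the HCC4006-labelled array and 240 on the HCC4006ER-labelled array, 2.67-fold lower. Of 5 ETV1 probe sets above background 4 were lower past 1.5-fold. Their measured log2 folds ran from -1.42, that of the chosen one, to -0.71, with a median of -0.75 over the 5. ETV3, a repressor, read 2104 and 1392, 1.51-fold lower, and did not pass after median scaling. ETS1, which acts in invasion and in vessels, read 1753 and 3212, 1.83-fold higher. ELF4 was 1.75-fold higher (2323 and 4064) and GABPA, a factor of mitochondrial and housekeeping genes, was 1.71-fold higher (453 and 776). A second GABPA probe set was 1.34-fold higher and within the threshold. ETV6, a repressor counted within 1.5-fold by its chosen probe set, had 3 of 4 probe sets above background lower past it. ETV4 and ETV5, also counted within, had 1 of 2 and 1 of 4 such probe sets higher past it. ELF5, the epithelial ETS gene closest to EHF in type, was under background on both arrays. By chosen probe set, SPDEF had a more negative log2 fold than any of these 15 genes, and EHF than all but ETV1.

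Genes linked to SPDEF in secretory cells included 3 of the lower ones. Of 10 such genes 6 were above background, 3 were lower, 1 was higher and 2 lay within 1.5-fold, at a median log2 fold of -0.61. Among all genes above background 11.2% were lower and 7.99% higher. AGR2, a disulfide isomerase needed for mucin folding, read 4347 on the HCC4006-labelled array and 1299 on the HCC4006ER-labelled array, 3.35-fold lower. GCNT3, which builds mucin glycan branches, read 326 and 94.0, 3.47-fold lower. TFF1, a trefoil peptide secreted with mucus, read 361 and 61.4, at least 3.94-fold lower. CREB3L1, a membrane-bound factor of the secretory pathway, went the other way, at 394 and 772, 1.96-fold higher. Its other probe set read 62.3, under background, on the HCC4006-labelled array and 95.4, just above background, on the HCC4006ER-labelled array. FOXA3, a forkhead factor of goblet cells, read 307 and 438 (log2 fold 0.51). MUC5AC, the airway mucin, read 77.3 and 118, above background only on the HCC4006ER-labelled array, and was at least 1.22-fold higher. It is counted among those within 1.5-fold because that bound did not pass. AGR3, MUC5B, TFF3 and the club cell gene SCGB1A1 were under background on both arrays.

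Other transcription factors of epithelia and lung were mixed. Of 15 genes 10 were above background, 2 were lower, 2 higher and 6 within 1.5-fold, with a median log2 fold of -0.29. For all genes above background the shares were 11.2% lower and 7.99% higher. ID1, an inhibitor of basic helix-loop-helix factors, read 12425 on the HCC4006-labelled array and 5032 on the HCC4006ER-labelled array, 2.47-fold lower, and the pioneer factor FOXA1 read 535 and 347, 1.54-fold lower. GATA6, a factor of foregut and lung endoderm, read 309 and 649, 2.10-fold higher, and TFAP2A, a factor of surface ectoderm, read 775 and 1385, 1.79-fold higher, with 1 of its 2 probe sets above background past the threshold. NKX2-1, the lung lineage factor, and SOX2 were under background on both arrays.

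**Figure D3:**
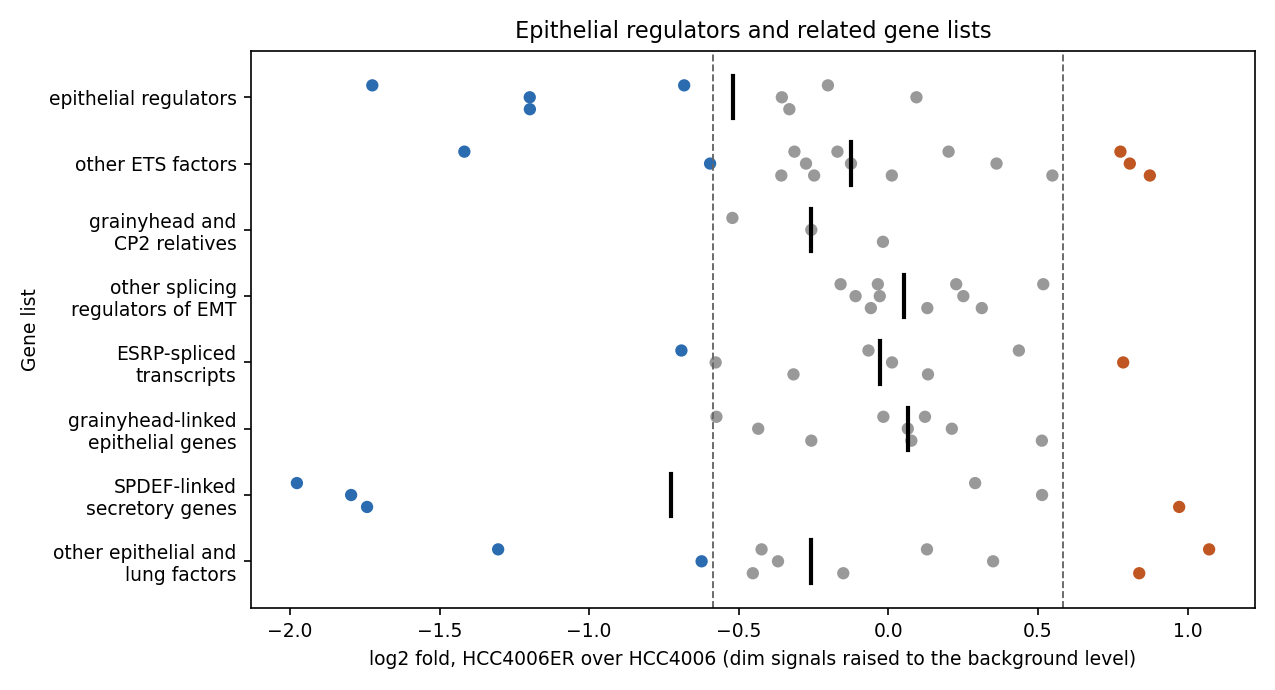
Log2 fold (HCC4006ER over HCC4006), with dim signals raised to background, for members above background of the regulator set and of the related gene lists, each point a gene (blue lower, orange higher, grey within), each black bar a median and dashed lines at 1.5-fold. The regulators have a median of -0.52 and no gene above the upper line. The SPDEF-linked genes have the lowest median, -0.73 with raised signals, which falls between 3 lower genes and the rest, all with positive log2 folds.

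In order of log2 fold by chosen probe set the regulators ran SPDEF, GRHL2, EHF, ESRP1, OVOL1, OVOL2, ELF3 and GRHL1. By these values GRHL2 and EHF could not be told apart. The order depended on the probe sets used. With the mean over all probe sets EHF (-1.44) lay below SPDEF (-1.34) and GRHL2 (-1.20). With the mean over probe sets above background SPDEF (-1.82) was again lowest. OVOL1 and OVOL2, and OVOL2 and ELF3, were separated by less than the probe-set SD. SPDEF lay 0.53 below GRHL2 (1.92 times that SD) and EHF 0.52 below ESRP1 (1.88 times). ESRP1 lay 0.33 below OVOL1 (1.19 times), and ELF3 lay 0.30 below GRHL1 (1.08 times). The SD does not hold the spread between cultures, so the order describes these 2 arrays. ESRP1, at 1.60-fold, was the regulator just past the threshold, and OVOL1, at 1.28-fold, the one just inside it. At any size, 7 of the 8 were lower on the HCC4006ER-labelled array, and 54.0% of all genes above background were.

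**Figure D4:**
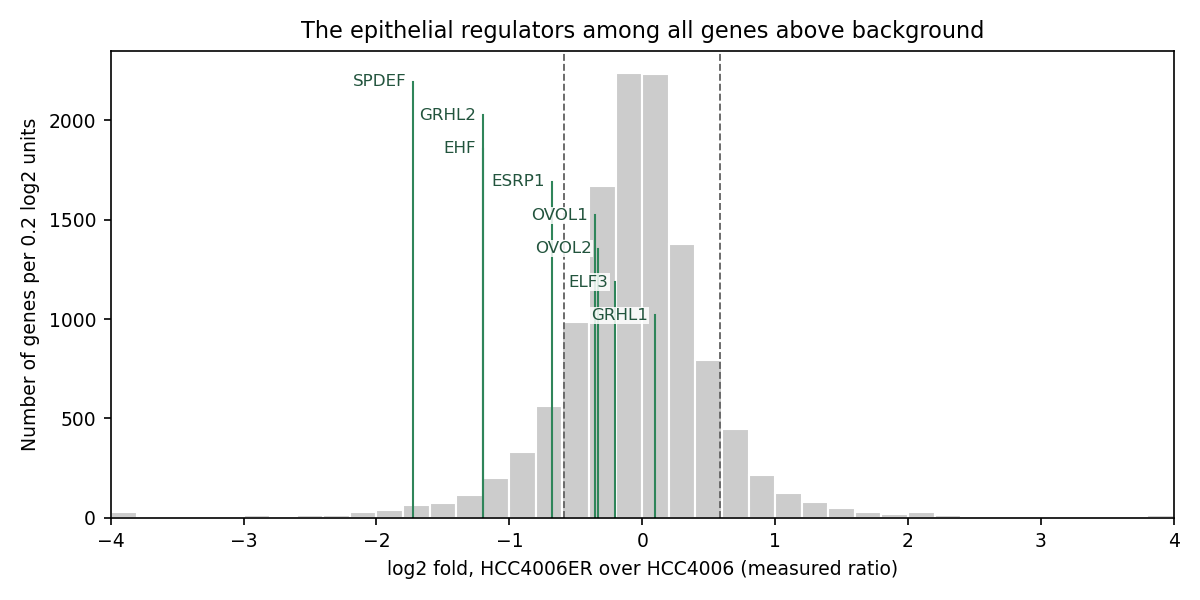
Histogram of the log2 fold (HCC4006ER over HCC4006) of all 11896 genes above background, in bins of 0.2, with the 8 measured regulators marked by vertical lines of arbitrary height and dashed lines at 1.5-fold. SPDEF, GRHL2 and EHF lie in the lower tail at -1.72, -1.20 and -1.20, and GRHL1 lies near the centre at 0.09.

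The genes next to the regulators in the genome were read as well, taking from RefSeq only their order. Among the nearest 2 measured genes on each side of the 9 regulators, 36 in all, 7 were lower, 0 higher and 29 within 1.5-fold, with a median log2 fold of -0.14. Of all genes above background 11.2% were lower and 7.99% higher. The 4 around EHF were all lower. CAT, the catalase gene, read 15432 on the HCC4006-labelled array and 7934 on the HCC4006ER-labelled array, 1.95-fold lower. APIP, an enzyme of methionine salvage, was 2.28-fold lower (8334 and 3649), PDHX, a subunit of pyruvate dehydrogenase, was 1.93-fold lower (10244 and 5318), and ABTB2 was 1.78-fold lower (2560 and 1437). Beside ESRP1, DPY19L4 was 1.79-fold lower and INTS8 1.57-fold lower, with VIRMA at a log2 fold of -0.51 and RAD54B at -0.28. Beside GRHL2, KLF10 was 1.50-fold lower, just past the threshold, and RRM2B and ZNF706 had log2 folds of -0.58 and -0.49. The remaining neighbour of GRHL2 lay in the other direction, the pseudogene NACA4P at 4757 and 6595 (log2 fold 0.47), which may share signal with its parent gene. KLF10 and INTS8 did not pass after median scaling. The 4 genes around SPDEF, in contrast, were all within 1.5-fold, from -0.35 for PACSIN1 to 0.49 for ILRUN-AS1.

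The window was then widened, after these values had been seen, to the nearest 10 measured protein-coding genes on each side. For comparison, 11.2% of all genes above background were lower (7.4% after median scaling), and 54.0% had a negative log2 fold. Around EHF all 20 neighbours had a negative log2 fold and 12 were lower past 1.5-fold (11 after median scaling), with a median of -0.79. They ran from -0.15 for CD59 to -2.79 for LMO2, a transcription cofactor that read 1656 on the HCC4006-labelled array and 240 on the HCC4006ER-labelled array. COMMD9 and NAT10 were 2.46-fold and 2.37-fold lower. EHF itself lay 0.41 below the median of its neighbours, and 3 of the 20 were further down.

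Around ESRP1, 15 of 20 neighbours were lower, 19 had a negative log2 fold and the median was -0.70. After median scaling 9 of the 20 were lower. GEM, at 0.44, was the exception, and CCNE2, a cyclin of the G1 to S transition, was 2.13-fold lower. ESRP1 differed from that median by 0.02, with 11 of the 20 further down. Around GRHL2, 6 of 20 were lower and 19 had a negative log2 fold, with a median of -0.45, and after median scaling 2 were lower. LRP12, at 0.35, was the exception there, and ATP6V1C1, a subunit of the proton pump, was 2.03-fold lower. GRHL2 lay 0.75 below its neighbours' median, with 0 of the 20 further down.

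SPDEF differed from these 3. Of its 20 neighbours 1 was lower, 1 higher and 8 had a negative log2 fold, with a median of 0.10. SPDEF lay 1.83 below that median, with 0 of the 20 further down. Among the regulators within 1.5-fold the neighbours' medians were -0.06 for GRHL1, 0.02 for OVOL1, 0.07 for OVOL2 and -0.24 for ELF3. For ESRP2, which has no reading of its own, the median of 20 neighbours was -0.17. ESRP1 and GRHL2 lie on the same chromosome, and their sets of neighbours share no gene. DNA copy number was not measured on these arrays, and its part in the values around EHF, ESRP1 and GRHL2 was not tested.

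**Figure D5:**
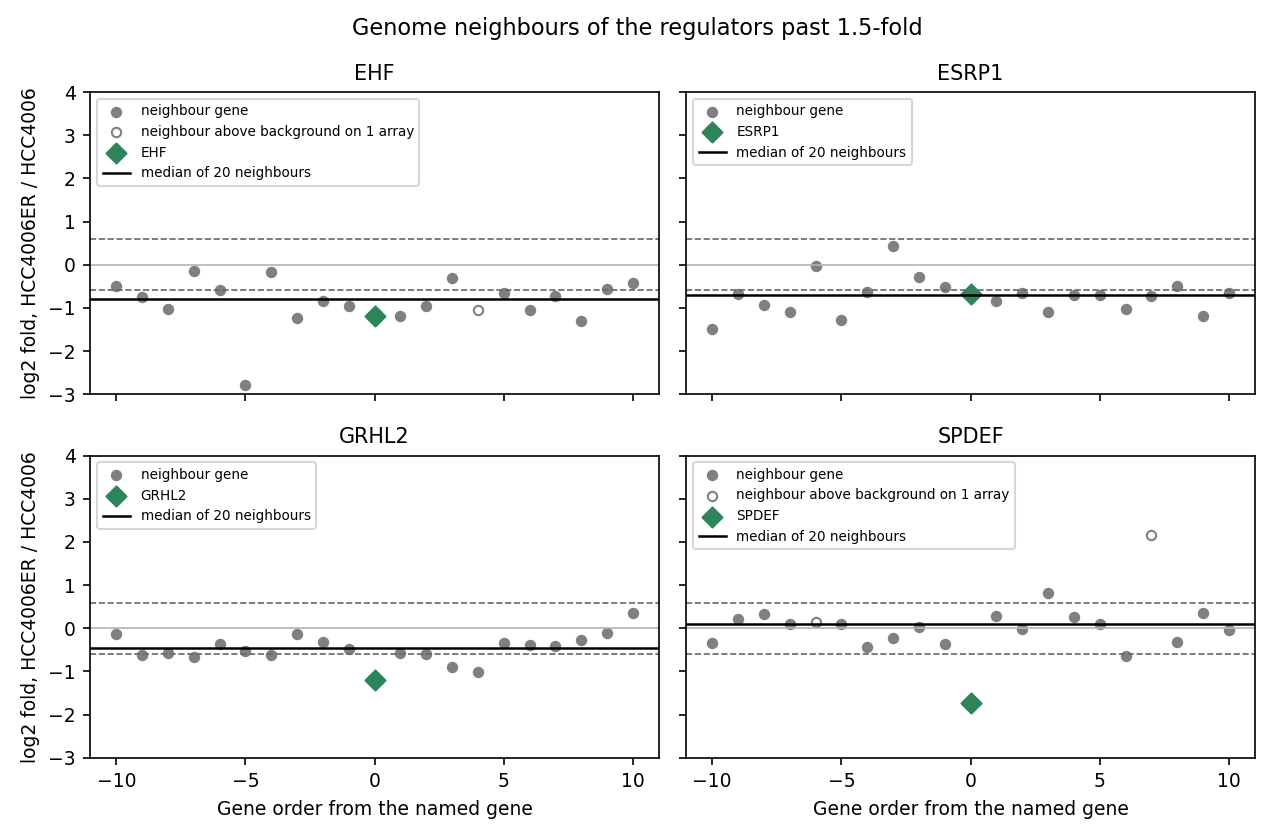
Log2 fold (HCC4006ER over HCC4006) of the 10 nearest measured protein-coding genes on each side of EHF, ESRP1, GRHL2 and SPDEF, in gene order, with the regulator as a green diamond, the neighbours' median as a solid line and dashed lines at 1.5-fold. Open circles are genes above background on 1 array. Neighbours of EHF and ESRP1 centre at -0.79 and -0.70 and those of SPDEF at 0.10.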

How the data were processed

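RNA from HCC4006 and HCC4006ER cells was hybridized to 1 array each. The authors deposited MAS5 signal intensity per probe set on a linear scale, for 54675 probe sets, and the submitters' processing notes name GCOS 1.4. Gene symbols came from the platform annotation (41097 probe sets with 1 symbol, 1801 with several, 11777 not listed here) and were updated through gene identifiers in RefSeq, which held 99.9% of them. Only probe sets with 1 symbol were used. Folds, counts and medians were computed from the deposited values as stated with the results, and a list's median uses measured ratios. The calculation was tested on simulated data. No p-value was computed. Precision is limited by having 1 array per line.

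The regulators, the gene lists and the tests were chosen with earlier results of these data known. All regulators were named, with each related gene past 1.5-fold, genes of short lists, and genome neighbours. Alternatives were median scaling, quantile normalization, other rules for the probe set of a gene, other background levels, raised dim signals and a 2-fold threshold. Promoter windows and gene order came from RefSeq (GRCh38.p14), with no entry used for OVOL1 and OVOL2, and windows of ESRP1 and GRHL2 are not shown. The 35116 windows are those of the whole table. Python 3.11.15, numpy 2.4.6, pandas 2.3.3 and matplotlib 3.10.9 were used.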

Additional observations from a re-analysis of the deposited data

How the results depend on the processing

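The count of regulators lower past 1.5-fold was 4 in the deposited scaling and 3 after scaling to equal medians, where ESRP1 dropped out, and 3 at a 2-fold threshold, and it was 4 under the other 8 alternatives. The count higher was 0 under all 10. The log2 fold ranged from -2.26 to -1.34 for SPDEF, from -1.93 to -1.06 for EHF, from -1.21 to -1.06 for GRHL2 and from -0.79 to -0.55 for ESRP1, with no sign reversed for any regulator. The mean over all probe sets gave SPDEF -1.34, and the probe set with the largest fold gave SPDEF -2.26, EHF -1.93 and OVOL2 -0.72. OVOL2 also read -0.72 without probe sets named _s_at or _x_at, by a probe set under background on both arrays.

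After scaling to equal medians, genes lower numbered 1 rather than 2 in the ETS family (ETV3 lost), 0 rather than 1 among ESRP-spliced transcripts (SCRIB lost) and 1 rather than 2 among the other epithelial and lung factors (FOXA1 lost). Genes higher numbered 1 rather than 0 among other splicing regulators (MBNL2), grainyhead-linked genes (ST14) and epithelial identity markers (DSP), 2 rather than 1 among SPDEF-linked genes (FOXA3 gained), and 4 rather than 3 in the ETS family (ETV4 gained). Among the 20 nearest protein-coding neighbours, a check added after seeing the data, genes lower numbered 9 rather than 15 around ESRP1, 2 rather than 6 around GRHL2, 1 rather than 2 around ELF3 and 0 rather than 1 around SPDEF, and genes higher numbered 1 rather than 0 around ESRP2 and GRHL1 and 2 rather than 1 around SPDEF. With the mean over all probe sets, ESRP-spliced transcripts had 2 lower (CD44 and SCRIB) rather than 1 and 0 higher rather than 1, SPDEF-linked genes had 0 higher rather than 1, the other epithelial and lung factors had 1 lower and 0 higher rather than 2 and 2, and fibroblast markers had 0 higher rather than 1 (COL1A1), while in the ETS family ETV6 took the place of ETV3 among 2 lower. Among all calls in the deposited scaling 58.3% were lower. No paired analysis was possible because each cell line had 1 array. Without replicates, no difference here could be set against variation between cultures, and dim genes have only bounds. GRHL2 rests on 1 probe set and SPDEF on probe sets that may bind other transcripts.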
